A study of Mus musculus with 2 samples.

Results

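Mir126a and Mir126b are mouse microRNA genes on opposite strands of the same stretch of DNA, inside the gene Egfl7. They are 2 of the 2202 microRNA genes counted and were chosen by name, through the gene identifiers of the annotation. Small RNA was sequenced from whole heart tissue of adult female mice, 8 to 10 months old, of the strain label 5xFAD/CAST, with total RNA as input and a labelled size range under 30. The transgenes of 5xFAD mice model Alzheimer disease, and CAST names an inbred strain that traces back to wild mice. Both libraries carry the same label of strain, sex, age and tissue, no treatment is named, and there is no control group. The design therefore holds 1 group of 2 libraries, called biological replicates 1 and 2. They carry different biosample identifiers but share a donor identifier. Differences between them may therefore be technical, and every test below compares these libraries and no conditions.

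A microRNA is cut from a hairpin transcript as a short RNA from the 5′ arm (5p) or the 3′ arm (3p), and pairs with target messages mainly through its seed, bases 2 to 8. Mir126a is best known from endothelial cells, the lining of blood vessels, where it is made together with its host Egfl7, a secreted vessel protein. There it is known to hold down Spred1 and Pik3r2, which damp the signal of vascular growth factors, and so to support vessel integrity. Platelets also carry it. In whole heart tissue the cells that a read came from were not recorded, so the endothelial origin is background here. Mir126b is annotated on the other strand, so that its transcript would be the reverse complement of part of the Mir126a hairpin.

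The sequences of 3 products of the locus show how the strands relate. All are from RefSeq (build GRCm38.p6, the same assembly as mm10), written 5′ to 3′. In the mature forms the capitals mark the seed.
mmu-miR-126a-3p: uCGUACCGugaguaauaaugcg
mmu-miR-126b-5p: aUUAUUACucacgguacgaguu
mmu-miR-126b-3p: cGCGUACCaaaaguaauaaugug
The other arm of Mir126a gives mmu-miR-126a-5p, which was not compared here. miR-126a-3p lies at chr2:26591402-26591423 on the plus strand. Opposite it, miR-126b-5p lies at chr2:26591399-26591420 on the minus strand, so 19 bases of each are complementary to the other. miR-126b-3p lies at chr2:26591363-26591385 on the minus strand. None of these 3 seeds was found in another of the 1738 mature mouse microRNAs listed, a list that lacks mmu-miR-126a-5p. The seeds of miR-126a-3p and miR-126b-3p share a run of 6 bases, CGUACC, and the mature forms share a longest run of 10 bases.

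The hairpins are shown because reads were counted over them. Here the capitals mark the listed mature forms.
Mir126a: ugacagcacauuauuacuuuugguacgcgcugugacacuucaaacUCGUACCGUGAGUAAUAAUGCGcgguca
Mir126b: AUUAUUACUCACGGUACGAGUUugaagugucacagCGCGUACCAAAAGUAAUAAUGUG
Mir126a (ENSMUSG00000065540.1) spans chr2:26591357-26591429 on the plus strand, 73 bases, and Mir126b (ENSMUSG00000105799.1) spans chr2:26591363-26591420 on the minus strand, 58 bases. All 58 bases of Mir126b lie inside Mir126a, which has 15 bases of its own. Egfl7 is on the plus strand, as Mir126a is. Of its 19 annotated transcripts, 9 span the site. It is intronic in 8 of these and exonic in 1, which is annotated as a retained intron. The nearest other microRNA gene, Mir6996, is 121 kb away and had 2 reads in replicate 1 and 1 in replicate 2.

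**Figure D1:**
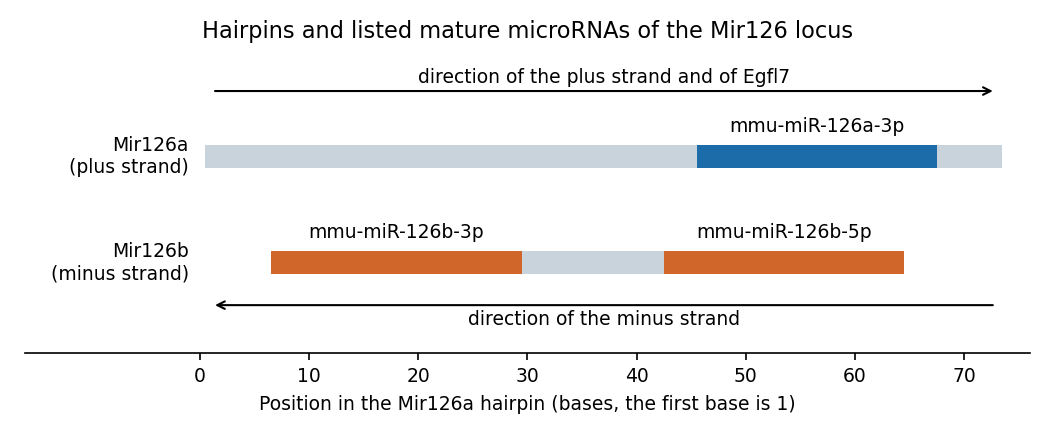
Map of the Mir126 locus to scale, with the position in the Mir126a hairpin in bases on the horizontal axis. Grey bars are the hairpins of 73 and 58 bases and coloured bars the listed mature forms. The Mir126b hairpin lies wholly inside that of Mir126a, and miR-126b-5p faces miR-126a-3p over 19 bases.

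Neither hairpin shares a run of 18 bases with any of the other 2201 microRNA genes in the same sense, whereas 1128 of the 2202 genes (51.2%) share such a run with another. Reads that fitted several loci, 42.4% and 43.2% of all reads, were assigned to no gene in the tables. Loci outside microRNA genes were not searched for copies. In the same sense, the longest run shared by the Mir126a and Mir126b hairpins is 10 bases, so a longer read cannot match both in full. Reads on the opposite strand also occur at genes with no annotated microRNA gene there, as measured below. A read on the Mir126b strand thus need not come from Mir126b.

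Among reads that fitted 1 locus, Mir126a was one of the most abundant microRNA genes of the heart and Mir126b was at the edge of detection. Levels and places given here leave out reads at several loci, so microRNAs with several gene copies can be more abundant than they appear. On its own strand Mir126a had 729774 reads in replicate 1 and 134611 in replicate 2. Per 1000000 reads assigned to microRNA genes (CPM) these were 174314 and 46780, a mean of 110547 ± 90180 (SD, n = 2). It was high in both libraries, but the spread between them was almost as large as the mean. As a share of microRNA gene reads, Mir126a took 17.4% in replicate 1, with an exact 95% interval (Clopper-Pearson) of 17.4 to 17.5. In replicate 2 it took 4.68%, with an interval of 4.65 to 4.70. As a share of all reads, unassigned ones included, it took 5.51% and 1.51%. These intervals, and those below, reflect only the error of counting reads and no further variation between libraries. Copies made by PCR could not be told from separate molecules, so the intervals can be too narrow.

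Mir126a stood first of 2202 genes in replicate 1 and in place 9 in replicate 2. In replicate 1 it had 1.65 times the reads of Mir378a, the microRNA of the metabolic coactivator gene Ppargc1b, which came next. In replicate 2 Mir378a was first, and Mir126a had 0.370 times its reads. The other genes above Mir126a in replicate 2 included Mirlet7b, Mir23b, Mir23a and Mirlet7g, all of which it exceeded in replicate 1. Set against the reads of all other microRNA genes, Mir126a had 211113 reads per 1000000 in replicate 1 and 49076 in replicate 2.

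Mir126b had 1 read on its own strand in each library. That is 0.239 CPM in replicate 1, with an exact 95% interval of 0.00605 to 1.33, and 0.348 CPM in replicate 2, with 0.00880 to 1.94. The mean was 0.293 ± 0.0768 CPM (SD, n = 2). Both values lie under the limit of 3 reads that a count of 0 would allow, 0.717 and 1.04 CPM. In replicate 1, 102 genes including Mir126b had exactly 1 read and 1562 had none. In replicate 2 these numbers were 88 and 1619. Reads of its 5p and 3p arms were not separated in the tables, nor were those of Mir126a.

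**Figure D2:**
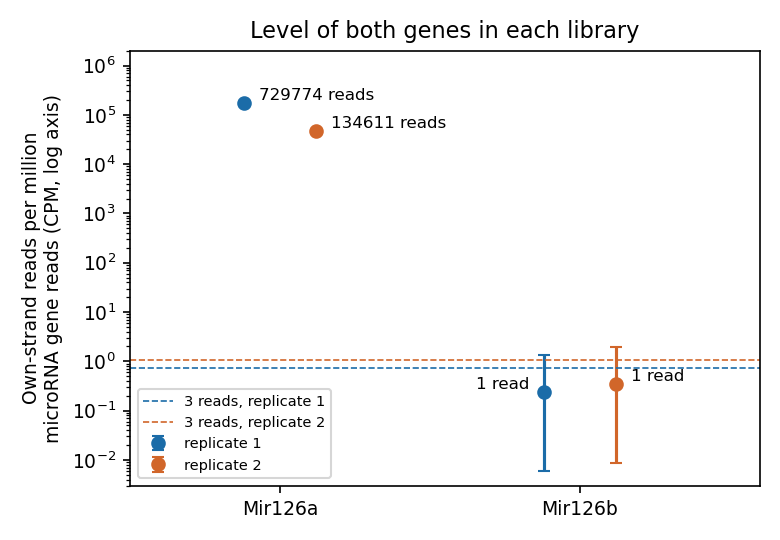
Own-strand reads of Mir126a and Mir126b per 1000000 microRNA gene reads on a log axis, 1 point per library with its exact 95% interval. Dashed lines mark the level of 3 reads in each library. Mir126a stood at 174314 and 46780 CPM, and Mir126b, with 1 read in each library, below both lines.

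The strands were thus extremely unequal over the same bases. Across the 58 bases that both genes share, replicate 1 had 729745 reads on the Mir126a strand and 1 on the Mir126b strand, and replicate 2 had 134603 and 1. This comparison needs no correction for length, since it is made over a single interval. Only 29 and 8 reads of Mir126a touched none of the shared bases. Mir126b made up 0.000137% of the reads of the pair in replicate 1, with an exact 95% interval of 3.47e-06 to 0.000763. In replicate 2 it made up 0.000743%, with an interval of 1.88e-05 to 0.00414. The mean was 0.000440% ± 0.000428 (SD, n = 2). Expressed as a ratio, Mir126a had 729774 reads per read of Mir126b in replicate 1 (95% interval 130980 to 28824600) and 134611 in replicate 2 (24160 to 5316890).

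Against wrong-strand reads found elsewhere, Mir126b had fewer in replicate 1 and could not be told apart in replicate 2. Wrong-strand reads were measured in the microRNA genes that overlap no microRNA gene of the other strand and had at least 100 reads. The term covers any read on the strand opposite to the gene. Whether such reads were errors of strand or RNA made from that strand was not tested. In replicate 1, 190 such genes held 40 reads on the opposite strand beside 2900675 on their own, a share of 0.00138% (exact 95% interval 0.000985 to 0.00188). In replicate 2, 167 genes held 51 beside 2302102, a share of 0.00222% (0.00165 to 0.00291). At these shares the Mir126 locus would hold 10.1 and 2.98 reads on the Mir126b strand, and 1 was found in each library. In replicate 1 the interval of Mir126b lies below that of the other genes, and in replicate 2 the intervals overlap.

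Wrong-strand reads were spread unevenly over genes, so the reference level is itself uncertain. In replicate 1, 176 of the 190 genes had no opposite-strand read, and in replicate 2, 158 of 167. In replicate 2, 33 of the 51 reads came from Mir122, a liver microRNA gene, and without that gene the share was 0.000782%, close to the 0.000743% of Mir126b. Among genes with at least 1000 reads the shares were 0.00108% in replicate 1 and 0.000440% in replicate 2, which would give 7.89 and 0.592 reads at the Mir126 locus. Against that reference Mir126b was lower in replicate 1 and higher in replicate 2, where the interval of its share spans both references. Among the abundant genes without a partner, Mirlet7b had 12 opposite-strand reads beside 261411 in replicate 1 and 4 beside 294758 in replicate 2. Mir23b, with 212447 and 267474 reads, had none. With 1 read in each library, Mir126b expression above the wrong-strand level could not be shown at this depth.

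Other opposite-strand pairs give a scale for the weaker strand, among reads that fitted 1 locus. The tables hold 32 such pairs, and 7 of them, that of Mir126 included, had at least 1000 reads in each library. Among the other 6, the weaker gene had no read in either library in 3, those of Mir378a, Mir30e and Mir191. For the partner of Mir378a, 0 of 442177 and 0 of 363354 reads allow shares of up to 0.000678% and 0.000826%. The partners of Mirlet7e and Mir497 had 0 reads in replicate 1 and 1 in replicate 2. The exception among the 6 was Mir3107, opposite the red cell and muscle gene Mir486, with 118 reads (2.76%) in replicate 1 and 113 (3.45%) in replicate 2. Of the 24 pairs with at least 10 reads, 10 had any read on the weaker gene and 4 had some in both libraries, Mir126b among them. The highest weaker shares of these 4 were at Mir3074-1, opposite Mir24-1, with 47 and 26 reads, or 9.92% and 5.96% of the pair. Reads at several loci are left out of all these shares, which are distorted where either gene of a pair lost reads this way. Which of the other pairs did, Mir3107 and Mir3074-1 included, was not examined.

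**Figure D3:**
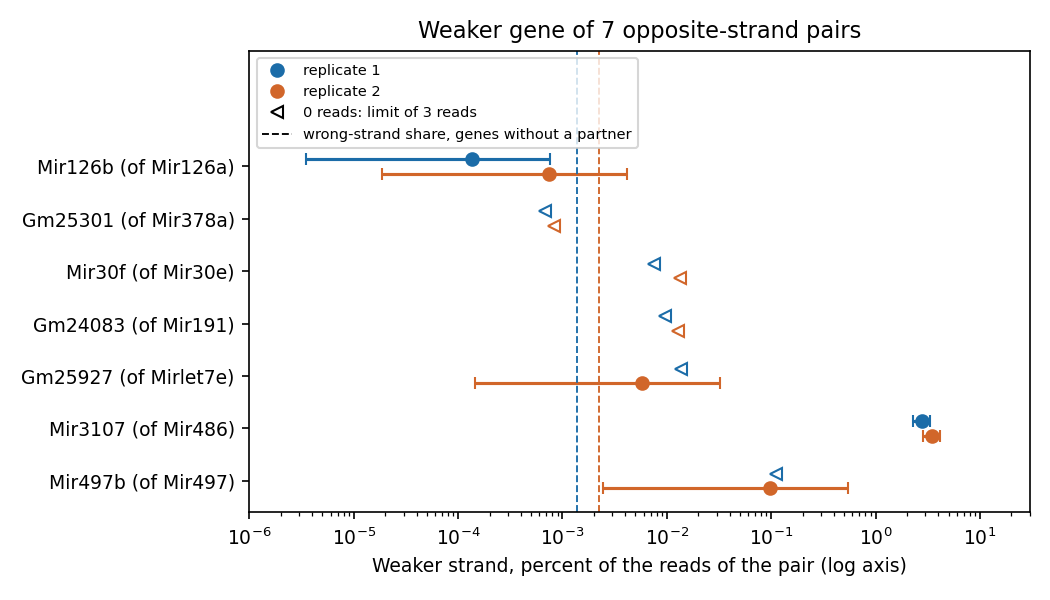
Share of the weaker gene in the reads of each opposite-strand pair on a log axis, for the 7 pairs with at least 1000 reads in each library. Points carry exact 95% intervals, open triangles mark the limit of 3 reads where the weaker gene had 0, and dashed lines mark the wrong-strand shares of genes without a partner, 0.00138% and 0.00222%. The Mir126b points lie left of both lines, but the interval of replicate 2 crosses both. Mir3107 lies far to the right.

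Whether the weaker strand moved with the stronger could not be resolved. The Mir126b share of the pair was 5.42 times as high in replicate 2 as in replicate 1 by the odds ratio, with a 95% interval of 0.0691 to 426. Fisher's exact test (two-sided) gave p = 0.287 and an adjusted p of 1 over the 24 pairs tested (Benjamini-Hochberg). By Fisher's exact test, 0 of the 24 pairs (0%) passed the adjusted threshold of 0.05, and 1 had an unadjusted p under 0.05. With 1 read on each side, this test says nothing on whether the share was stable.

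The predicted folds of the strands were almost equal over the shared bases. Over the shared 58 bases RNAfold gave a minimum free energy of -19.4 kcal/mol with 20 base pairs for the Mir126a strand, and -19.3 kcal/mol with 21 base pairs for the Mir126b strand. Among the 24 pairs with at least 10 reads, the strand with more reads had the lower energy in 18 and the higher in 6. For Mir378a, the difference was wider, at -38.5 against -33.3 kcal/mol over 66 bases. These energies are predictions for the shared interval and not measurements. That interval is the whole Mir126b hairpin but leaves out 15 bases of Mir126a. The folded strands of a pair are reverse complements, so similar energies are partly fixed by the sequence. Whether folding bears on the reads of either strand was not tested.

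Ignoring strand removed nearly all reads of Mir126a. Counted without regard to strand, Mir126a kept 29 reads in replicate 1 and 8 in replicate 2, or 9.98 and 3.47 CPM, because a read that overlaps genes of both strands is then ambiguous. It lost 729745 and 134603 reads in this way, nearly all of those on its own strand. These made up 57.0% of all ambiguous reads of replicate 1 and 23.6% of those of replicate 2. Its place among the 2202 genes became 254 and 314 in place of 1 and 9. Mir126b had 0 reads in that column in both libraries.

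Mir126a was lower in replicate 2, and by more than most genes. The log2 ratio of replicate 2 over replicate 1, scaled by the trimmed mean of M-values (TMM), was -1.83 (exact 95% interval -1.83 to -1.82), or 3.55-fold lower. It passed the exact binomial test over all 309 genes kept by a filter on low counts (Benjamini-Hochberg, threshold 0.05), with an adjusted p below the smallest number the computation holds. In that test 196 of 309 genes (63.4%) differed between the libraries, 87 lower (28.2%) and 109 higher (35.3%) in replicate 2, so passing it was common. With no filter beyond 1 read, 30.2% of 709 genes passed, Mir126a among them, and Mir126b did not (exact binomial test, adjusted p = 1). With DESeq2 size factors, which move every log2 ratio by -0.15, the numbers were 103 lower and 83 higher. They were 97 and 98 with plain totals, and 122 and 72 with plain totals that left out Mir126a. The balance of directions over all genes thus depends on the scaling, whereas Mir126a was lower under each of these. The size was less common, since 15 of the 309 genes (4.85%) had a larger absolute log2 ratio and 11 a lower one. Among the 62 genes with a mean of at least 1000 CPM, 3 had a lower ratio. Mir126b did not pass the filter. Its log2 ratio from 1 read in each library was 0.61, with an exact 95% interval of -5.68 to 6.91. In bulk tissue fewer endothelial cells and less of the microRNA per cell cannot be told apart.

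**Figure D4:**
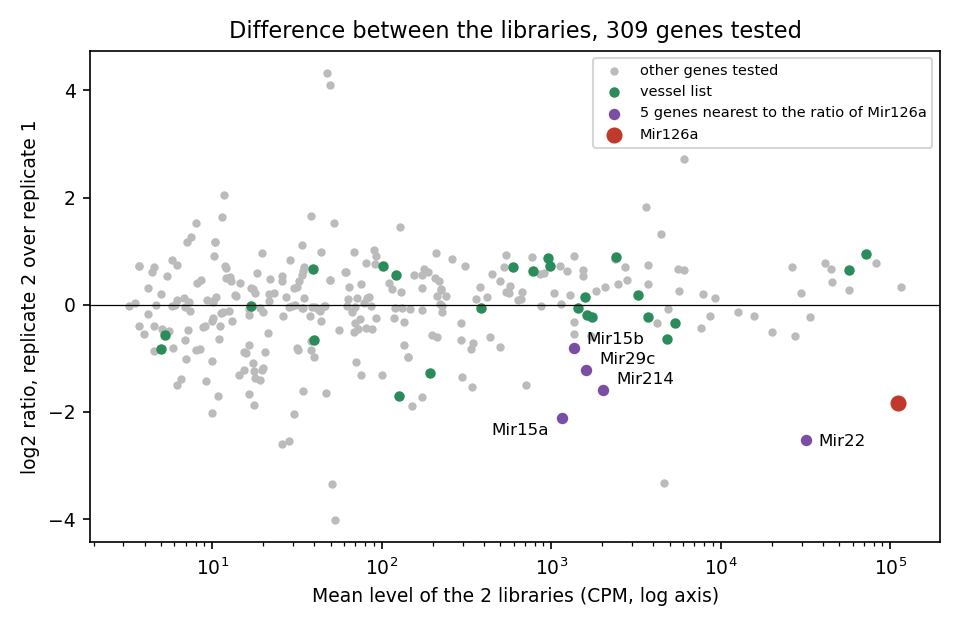
The log2 ratio of replicate 2 over replicate 1 (TMM-scaled) against the mean level in CPM on a log axis, 1 point per gene for the 309 genes tested. Mir126a lies at -1.83, and of the purple points Mir22 and Mir15a lie lower.

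The abundant genes whose ratio was nearest to that of Mir126a, out of those with a mean of at least 1000 CPM, were Mir214, Mir15a, Mir29c, Mir22 and Mir15b. Mir214, a fibroblast-associated gene, had 3091 and 976 CPM, a log2 ratio of -1.59. Mir15a, a gene known for restraining the cell cycle, had 1903 and 418 CPM, a log2 ratio of -2.11. Mir29c, of a family known to repress collagen genes, had 2292 and 939 CPM, a log2 ratio of -1.21. Mir22, a muscle-rich gene linked to cardiac hypertrophy, had 54550 and 9084 CPM, a log2 ratio of -2.51. Mir15b had 1766 and 964 CPM, a log2 ratio of -0.80, and lay 1.02 from Mir126a on that scale. The likeness is a distance between ratios over 2 libraries, so it ranks genes and shows no shared pattern across conditions.

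MicroRNA genes known from endothelial cells or vessel growth were split in direction. Besides Mir126a this list holds 29 genes, of which 25 were tested. In replicate 2, 8 of them were lower, 12 were higher and 5 did not pass, beside 28.2% lower and 35.3% higher over all 309 genes tested. Their median log2 ratio was -0.02, beside 0.01 over all genes tested. With Mir126a included, 9 were lower and 12 higher by TMM, 11 and 10 with DESeq2 size factors, 11 and 12 with plain totals, and 13 and 10 with plain totals that left out Mir126a. Mir126a had the lowest ratio of the 26 genes tested. Next came Mir210, the microRNA gene induced by low oxygen, with 816 and 163 reads (log2 ratio -1.71), and Mir24-2, with 1153 and 314 reads (-1.26). Mir34a, a target of p53 linked to vascular ageing, had 25182 and 10591 reads (-0.64), and Mir503 had 209 and 87 (-0.65). Mir27b (-0.35), Mir27a (-0.22), Mir100 (-0.22) and Mir130a (-0.19) were lower by less.

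The 12 higher genes of the list included Mir221 and Mir222, the other tested genes of the endothelial marker list. Mir221, which with Mir222 limits vessel sprouting through the receptor Kit, had 7294 reads in replicate 1 and 8861 in replicate 2, or 1742 and 3079 CPM, a log2 ratio of 0.89. Mir222 had 330 and 357 reads, or 78.8 and 124 CPM, a log2 ratio of 0.73. Mir23b, of a cluster that supports vessel growth, had 50745 and 92953 CPM (log2 ratio 0.94), and its paralogue Mir23a had 45740 and 67881 CPM (0.64). Within these clusters Mir27b and Mir27a were lower while Mir23b and Mir23a were higher. From the Mir17-92 cluster, which is active in vessel growth, Mir17 (0.73), Mir18 (0.68) and Mir20a (0.63) were higher. Mir92-1 (-0.06, adjusted p = 0.07 in the exact binomial test) did not pass. Mir10b (0.87), Mir31 (0.71) and Mir24-1 (0.55) were higher. Mir322 (0.19) and Mir10a (0.14) were higher too, but the ratio of Mir10a fell to -0.01 with DESeq2 size factors, and both were below 0 when Mir126a was left out of the plain totals.

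The rest of the list was near zero or scarce. Mir132 (log2 ratio -0.06), Mir218-2 (-0.02), Mir218-1 (-0.82) and Mir296 (-0.56) did not pass, the last 2 with 27 reads each in replicate 1. Mir126b, Mir217, Mir19a and Mir19b-1 were not tested, with at most 3 reads in either library. Of these, Mir19a and Mir19b-1 belong to a family with copies at other loci, and their counts hold only reads that fitted 1 locus. The same holds for every gene of the list, Mir24-1 and Mir24-2 included, so their ratios cover only such reads. The list without Mir126a summed to 12.8% of microRNA gene reads in replicate 1 and 19.0% in replicate 2, so its sum was higher where Mir126a was lower. Most of that sum came from Mir23b (50745 and 92953 CPM) and Mir23a (45740 and 67881 CPM). The sum therefore mainly follows these genes and does not describe the list as a whole. Shares of a total are not independent, and Mir126a alone took 17.4% and 4.68% of it.

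**Figure D5:**
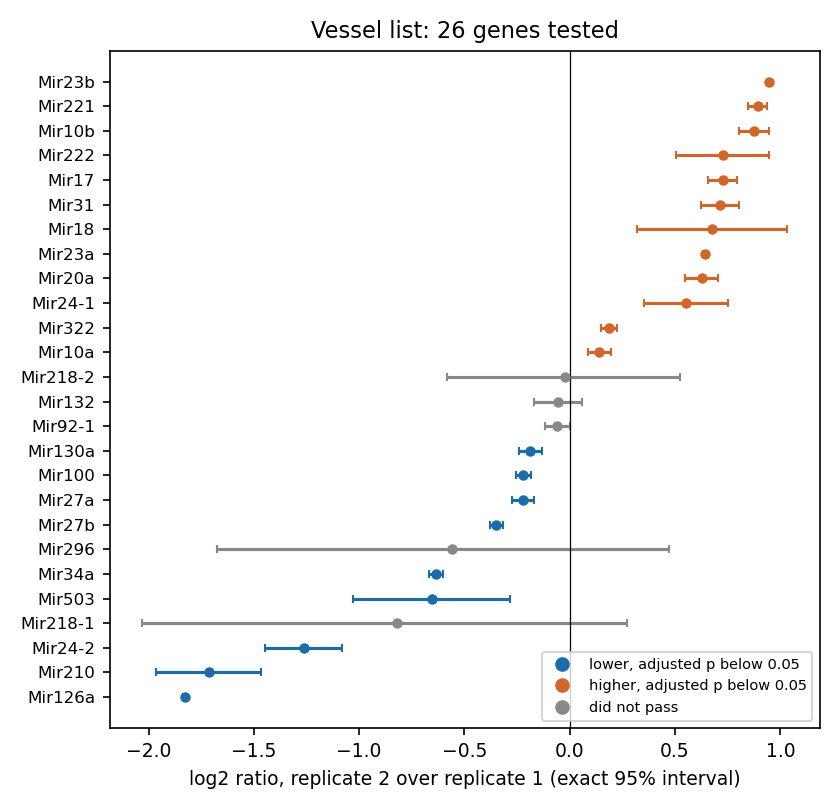
The log2 ratio of replicate 2 over replicate 1 (TMM-scaled) with its exact 95% interval for the 26 tested genes of the list known from endothelial cells or vessel growth. Mir126a has the lowest ratio, and Mir221 and Mir222 lie among the higher genes.

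Read ratios within a library do not depend on the scaling. Mir126a had 100 reads per read of Mir221 in replicate 1 and 15.2 in replicate 2. Per read of Mir143, a smooth muscle gene, it had 5.58 and 0.922, and per read of Mir499, a heart muscle gene, 36.4 and 12.9. Per read of the leukocyte and platelet gene Mir223 it had 1233 and 217. For the 3 red cell genes the ratios were 339 and 278 per read of Mir451a, 727 and 756 per read of Mir144, and 176 and 42.6 per read of Mir486, which muscle also makes. Over the 3 together it was 99.8 and 35.2, so the red cell genes did not share a single ratio to Mir126a.

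Markers of other cells of the heart also differed between the libraries. The erythroid genes Mir451a (log2 ratio -1.54) and Mir144 (-1.88) were lower in replicate 2 and Mir486 (0.22) was higher by TMM, though below 0 when Mir126a was left out of the plain totals. Those 3 genes summed to 1747 CPM in replicate 1 and 1328 in replicate 2. These counts stand beside 28.2% lower and 35.3% higher over all genes tested. Of 7 cardiomyocyte genes, 3 of the 4 tested were lower and none higher, with sums of 6544 and 4789 CPM, mostly from Mir499 of heart muscle at 4787 and 3618 CPM. None of the 7 was at 0. Mir1a-1, Mir133a-1 and Mir133a-2 had between 3 and 9 reads, and Mir1a and Mir133a are encoded at several loci, so this sum covers only reads that fitted 1 locus and is no measure of the level of these microRNAs. The 2 smooth muscle genes were higher, with sums of 32911 and 56334 CPM. All 5 leukocyte genes were higher by TMM, with sums of 5998 and 8349 CPM, though Mir342 was below 0 when Mir126a was left out of the plain totals. Of 5 fibroblast genes, 1 was lower and 1 higher of the 3 tested, with sums of 5305 and 3732 CPM. Mir199a-1, on the fibroblast list, was at 0 in both libraries, which covers only reads that fitted 1 locus. The endothelial genes other than Mir126a summed to 1821 and 3204 CPM. The part of these cell markers in the difference of Mir126a was not tested.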

How the data were processed

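Per the deposited readme, the authors aligned reads to mm10 and counted them per gene of annotation release M21. The deposited values are raw counts of reads without strand, on the strand of the gene and on the opposite strand. The aligner and counter: not given in the sources used here. Rows for unmapped reads (19.0% and 17.5% of 13233055 and 8930289 reads), reads at several loci (42.4% and 43.2%), reads outside genes (6.94% and 7.11%) and ambiguous reads (0% by strand) stayed out of library sizes and tests. This left 4186560 and 2877511 own-strand reads, 31.6% and 32.2% of all. All 2202 identifiers matched GENCODE M21.

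CPM used the own-strand column. TMM factors and the filter (filterByExpr, minimum count 10) came from edgeR 4.0.16 in R 4.3.3. Each library pair of counts was tested by an exact binomial test given the scaled totals, since 1 group leaves no residual degrees of freedom for a model of this contrast. Pairs of genes overlapping on opposite strands by at least 1 base were tested by Fisher's exact test from 10 reads. Both used Benjamini-Hochberg adjustment. Intervals are exact Clopper-Pearson. Genes named outside the members were the vessel list, the 5 genes of at least 1000 CPM nearest in ratio, pairs with at least 1000 reads in each library and the cell marker lists. Mir122, Mirlet7b, Mir6996, Mir3074-1 and the genes set beside Mir126a as read ratios or ranks were named after their values were seen. The members and lists were chosen with earlier results of these data known. Folds used RNAfold 2.7.2. Python 3.11.15, scipy 1.17.1 and DESeq2 1.42.0 (alternative size factors) were also used. The tests were checked on simulated counts that varied by counting error only. That check does not cover further variation between libraries.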

Additional observations from a re-analysis of the deposited data

How the results depend on the processing

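Of 40 recomputed values, 32 stayed within the SD of the libraries, within an interval or within 1.5-fold for counts of genes, or kept their call. This is a loose measure, since leaving out a replicate of 2 always keeps a mean level or share within that SD. Mir126a over all reads also stayed within it, at 35111 per 1000000 against 110547 CPM. The call of Fisher's exact test from 100 reads was entered as kept without a comparison. The interval for the ratio of Mir126b was also very wide. The ratio of Mir126a kept its direction under each scaling, whereas the balance of lower and higher genes did not. Ignoring strand took the mean of Mir126a to 6.72 CPM and its rank to 281, and that of Mir126b to 0. Leaving out a replicate gave ranks of 1 to 9 for Mir126a. Over all reads Mir126b stood at 0.0938 per 1000000. The wrong-strand share averaged 0.00180%, 0.00286% with genes from 10 reads, 0.000761% from 1000 reads and 0.00108% without Mir122 (added after seeing the data), so in replicate 2 Mir126b lay above it only from 1000 reads (0.000440%). The log2 ratio of Mir126a ranged from -2.10 (totals without Mir126a, added after seeing the data) to -1.83. No paired analysis was possible because the design holds 1 group. The test between libraries cannot leave out a replicate, and 1 read per library limits every statement on Mir126b.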
